A study of Caenorhabditis elegans with 36 samples.

Results

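MicroRNAs of whole N2 hermaphrodites of the nematode Caenorhabditis elegans, N2 being the wild-type laboratory strain, were compared between 2 days and 1 day in worms given DMSO 0.1 %. DMSO is a solvent in which drugs are dissolved. Other worms of the series were given rotenone, an inhibitor of mitochondrial complex I, and the source names of those groups give no vehicle. The comparison used 3 libraries of DMSO at 2 days and 3 libraries of DMSO at 1 day, which were chosen by their labels out of 36 libraries in 12 groups. The same interval in worms given rotenone at 100 nM (3 libraries at 2 days and 3 at 1 day), worms given H2O at 1 day (3 libraries) and a pair of groups at 5 days (DMSO and H2O, 3 libraries each) served as side comparisons. By the series title the times run from the start of treatment, although the labels give them as the age. The labels do not tell whether the 3 libraries of a group were grown as separate cultures. P-values therefore rest only on the spread between libraries of a group, which was estimated over all 36 libraries together and may be technical.

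MicroRNAs are short RNAs cut from hairpin precursors that guide Argonaute proteins to messenger RNAs and lower their output. In C. elegans several of them time development: lin-4 represses lin-14, let-7 represses lin-41 at the change from larva to adult, and the let-7 sisters mir-48, mir-84 and mir-241 act on hbl-1 earlier in larval life. Others are known for a tissue, such as mir-1 in muscle, mir-60 in the intestine, lsy-6 in a taste neuron and the mir-35 family in oocytes and embryos. In RNA from whole worms, fewer cells of a type and less RNA per cell cannot be told apart.

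The deposited table held raw read counts of 250 hairpins, with both arms of a hairpin counted together, of which 193 had enough counts to be tested. The 2-day libraries held 11254351 to 11313524 counts and the 1-day libraries 9634876 to 12924534. On the first principal component of the 6 libraries, which held 57.9% of the variance, the 2-day libraries lay between -4.06 and -2.402 and the 1-day libraries between 2.641 and 3.82. All 2-day libraries were sequenced on lane 1 and all 1-day libraries on lane 2, so time and lane cannot be told apart in the comparison itself. Values given below with lane as a further term come from an additive fit of treatment, time and lane over all 36 libraries, and so are 1 difference between 2 days and 1 day for the DMSO and rotenone worms together. Values with the lane pair subtracted have the difference between DMSO and H2O at 5 days, sequenced on the same lanes, taken off. That pair differs in vehicle as well as in lane. Levels are CPM (counts relative to library size, with TMM scaling), with no adjustment for length. Changes are log2 fold changes ± SE, 2 days over 1 day, with n = 3 libraries per group. The test was edgeR's quasi-likelihood test, its p-values were adjusted over all 193 hairpins by the method of Benjamini and Hochberg, and the threshold was 0.05.

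Between 1 day and 2 days the profile shifted for many miRNAs and by modest amounts. Of the let-7 family 6 of 8 members were lower at 2 days, as were lin-4, mir-237, mir-235, mir-59 and the mir-357 and mir-358 pair, while mir-788, mir-124, mir-1022, mir-244 and lsy-6 were higher. In all, 85 of 193 hairpins (44%) passed the test, 36 higher at 2 days (18.7%) and 49 lower (25.4%). Scaling moved this split: DESeq2 size factors gave 52 higher and 43 lower, and total counts gave 54 higher and 43 lower. Most changes were small, since of the 85 only 27 exceeded 1.5-fold (9 higher, 18 lower) and 7 exceeded 2-fold (3 higher, 4 lower). These 7 include mir-4926, mir-2953, mir-4929 and mir-5550, which had a mean under 5 CPM and rest on few reads. The median change of all 193 was 0.04 on the log2 scale. In 76 of the 85 all libraries of 2 days lay on 1 side of those of 1 day, as they did in 91 of all 193 (47.2%).

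**Figure D1:**
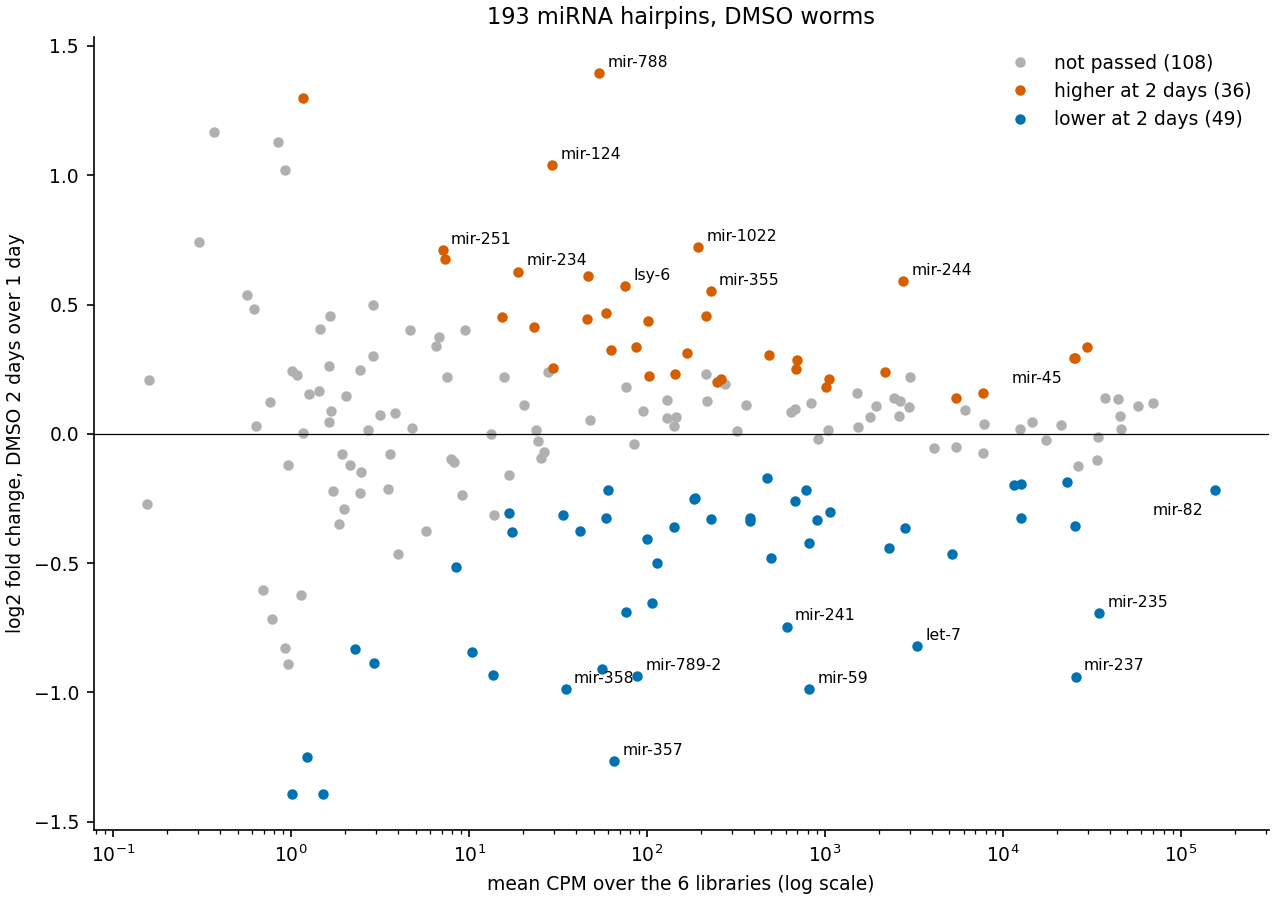
Log2 fold change of 193 miRNA hairpins in DMSO worms, 2 days over 1 day (vertical axis), against the mean CPM of the 6 libraries (horizontal axis, log scale). Each point is 1 hairpin, orange for the 36 higher at 2 days, blue for the 49 lower and grey for the 108 that did not pass; mir-788 is the highest orange point and the abundant mir-237, mir-235 and let-7 stand among the lowest blue points at their levels.

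The share that passed depended on the level, taken here as the mean CPM over all 36 libraries. Of the 60 hairpins with a mean under 10 CPM, 15% passed, against 64.4% of the 45 between 10 and 100 CPM and 65.8% of the 38 between 100 and 1000 CPM. Above these, 41.7% of the 24 hairpins between 1000 and 10000 CPM and 46.2% of the 26 over 10000 CPM passed.

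Every one of the 8 tested members of the let-7 family passed, 6 lower and 2 higher at 2 days, where 25.4% of all hairpins tested were lower and 18.7% higher. Their median change was -0.34 on the log2 scale, against 0.04 for all 193. let-7, which ends larval cell fates, had 2415, 2366 and 2317 CPM at 2 days, against 4171, 4346 and 4035 CPM at 1 day. The groups lay far apart, and within each the libraries differed by much less than the gap between them. let-7 fell to 0.566 of its 1-day level (log2 -0.82 ± 0.06, adjusted p = 5.88e-15). Its sister mir-241 had 496, 438 and 430 CPM at 2 days and 796, 742 and 750 CPM at 1 day, again with a wide gap, and fell to 0.596 (log2 -0.75 ± 0.09, adjusted p = 1.56e-08). The falls of the other sisters were smaller: mir-84 had a log2 change of -0.36 ± 0.05 (adjusted p = 2.06e-08) and mir-48 of -0.33 ± 0.05 (adjusted p = 4.91e-06), or -0.20 with lane as a further term. mir-795 fell by 0.50 and mir-794 by 0.25 on the log2 scale, and mir-794 did not pass without the low-count filter (log2 -0.19, adjusted p = 0.0543).

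Both let-7 family members that rose were divergent ones. mir-793, named after its values were seen, had 643, 714 and 936 CPM at 2 days and 614, 625 and 641 CPM at 1 day, with replicate 3 of 2 days well above the other libraries (log2 0.29 ± 0.09, adjusted p = 0.00579). mir-1821 had 13.9, 15.8 and 23.5 CPM at 2 days and 14.9, 9.60 and 13.8 CPM at 1 day (log2 0.45 ± 0.17, adjusted p = 0.0333). Its groups overlapped, and it did not pass without 2-day replicate 3 (log2 0.20, adjusted p = 0.419) or without 1-day replicate 2 (log2 0.30, adjusted p = 0.212). The 8 members together took 1.89% ± 0.11 of all counts at 2 days and 2.39% ± 0.08 at 1 day (SD, n = 3 each; exact permutation test, p = 0.1, the smallest that 3 against 3 libraries allow). Closely related hairpins can share reads, and no label or header tells how the authors assigned them, so the division of counts among let-7 sisters is uncertain.

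Both members of the lin-4 family fell, mir-237 by more, where 25.4% of all hairpins tested fell. mir-237, which shares its seed with lin-4, had 17174, 18275 and 17146 CPM at 2 days, against 33090, 35304 and 32447 CPM at 1 day. No 2-day library came near a 1-day one, and mir-237 fell to 0.522 of its 1-day level (log2 -0.94 ± 0.06, adjusted p = 6.11e-15). lin-4 itself had 563, 669 and 615 CPM at 2 days and 757, 773 and 684 CPM at 1 day, with a narrow gap between the closest libraries (log2 -0.26 ± 0.10, adjusted p = 0.0264). lin-4 did not pass without 2-day replicate 1 or 3 or without 1-day replicate 1 or 2, with log2 changes of -0.20 to -0.26 and adjusted p-values of 0.0626 to 0.161 (edgeR). It also did not pass with total-count scaling (adjusted p = 0.0808) or with the lane pair subtracted (adjusted p = 0.323). With total counts as the scaling its adjusted p was 0.0808. The pair took 1.96% ± 0.12 of all counts at 2 days, against 3.56% ± 0.21 at 1 day (SD, n = 3 each; exact permutation test, p = 0.1).

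Outside these families the largest falls included a genomic pair and single miRNAs of very different abundance. mir-357 had 37.6, 38.6 and 38.9 CPM at 2 days and 97.0, 88.1 and 91.5 CPM at 1 day. Its neighbour mir-358 had 26.6, 19.4 and 24.3 CPM at 2 days and 51.3, 41.7 and 46.2 CPM at 1 day. In both the groups stood well apart, with mir-357 at 0.416 (log2 -1.26 ± 0.10, adjusted p = 1.18e-13) and mir-358 at 0.504 of the 1-day level (log2 -0.99 ± 0.11, adjusted p = 7.52e-10). mir-59 had 550, 563 and 530 CPM at 2 days and 1048, 1132 and 1077 CPM at 1 day. Its libraries scattered little within a time, and it fell to 0.504 (log2 -0.99 ± 0.06, adjusted p = 1.28e-15), the smallest adjusted p of the comparison.

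Among the other large falls, mir-789-2 had 52.3, 60.6 and 67.6 CPM at 2 days and 106, 122 and 118 CPM at 1 day (log2 -0.94 ± 0.12). mir-1817 had 39.7, 37.6 and 38.9 CPM at 2 days and 70.6, 73.9 and 73.8 CPM at 1 day (log2 -0.91 ± 0.09). The groups of both were separate, and both fell to about the same share of their 1-day level, 0.522 for mir-789-2 and 0.532 for mir-1817. mir-799 had 10.5, 8.96 and 8.53 CPM at 2 days and 18.4, 19.6 and 15.7 CPM at 1 day (log2 -0.93 ± 0.14). mir-798 had 8.60, 7.20 and 6.40 CPM at 2 days and 14.2, 12.8 and 12.9 CPM at 1 day (log2 -0.84 ± 0.17). These 2 lay low and still did not overlap. The fall of mir-798 was smaller with lane as a further term, at a log2 change of -0.42 (adjusted p = 0.0138).

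The next largest fall by the same criteria, named after its values were seen, was that of mir-235, a miR-92 type miRNA known for holding cells quiescent in starved larvae. It had 26629, 24477 and 28164 CPM at 2 days and 43305, 45116 and 39886 CPM at 1 day. The gap between the groups was wider than the scatter within them, and mir-235 fell to 0.618 (log2 -0.69 ± 0.10, adjusted p = 1.57e-07). mir-85, which shapes the heat response through hsp-70 and was also named after its values were seen, had 4502, 4666 and 3845 CPM at 2 days and 5780, 6235 and 5966 CPM at 1 day. It fell to 0.724 with no overlap (log2 -0.47 ± 0.07, adjusted p = 7.02e-07).

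**Figure D2:**
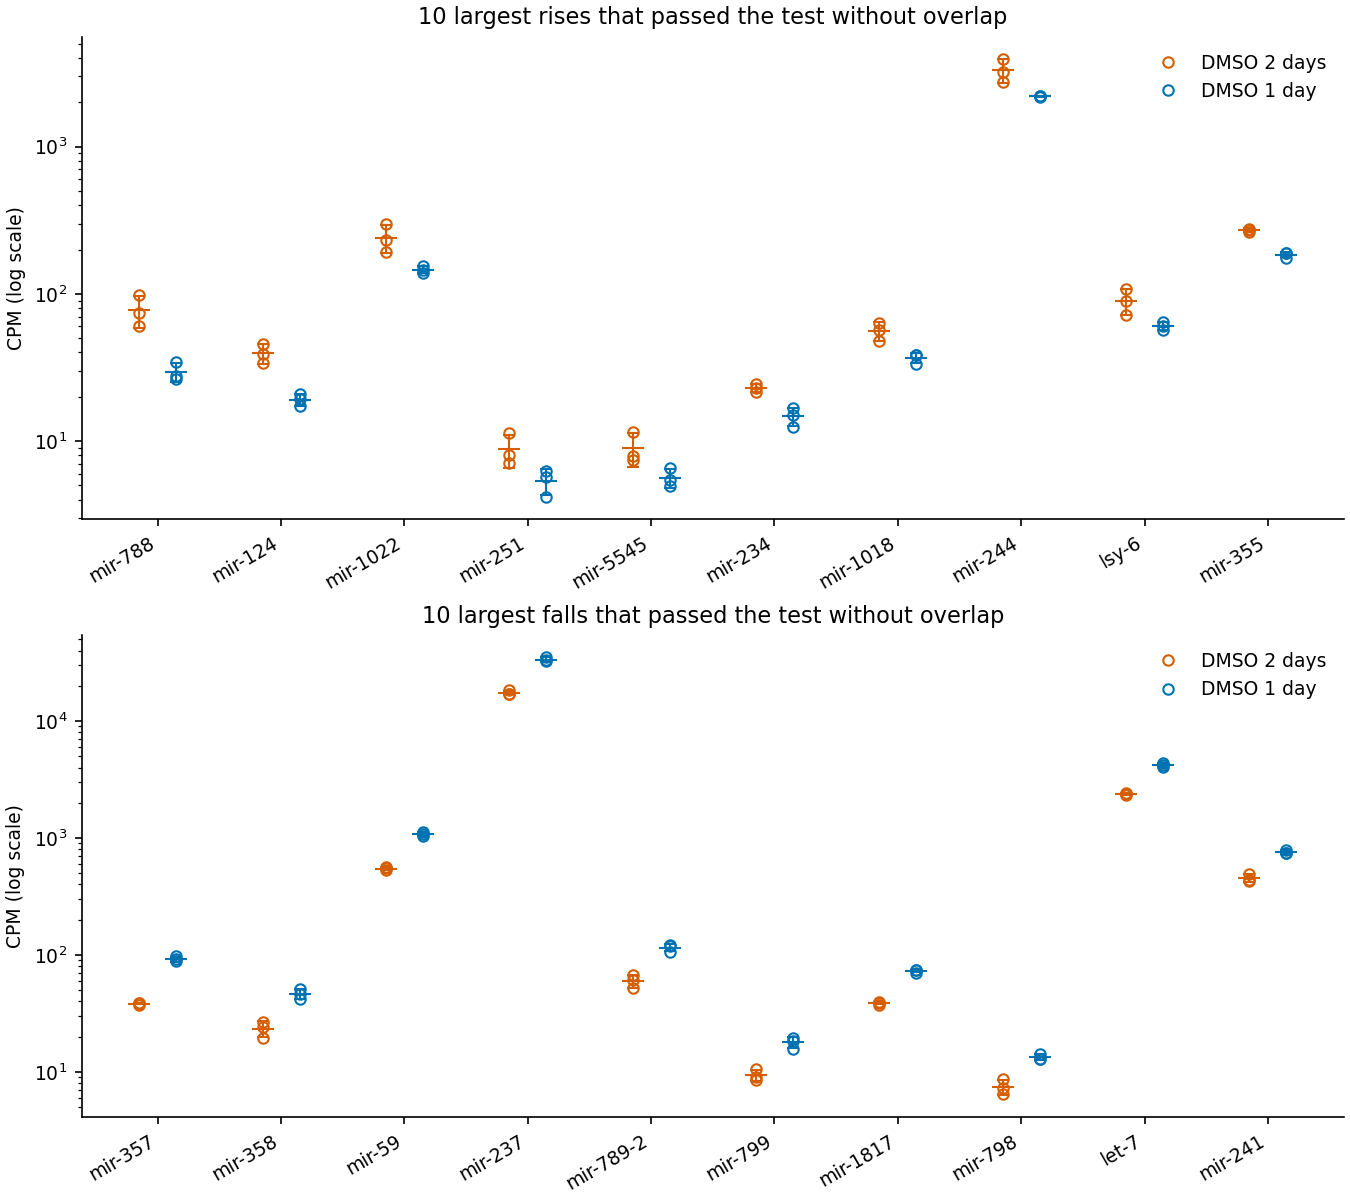
CPM (log scale) of the 10 largest rises (upper panel) and the 10 largest falls (lower panel) among hairpins that passed the test, did not overlap between groups and averaged at least 5 CPM. Circles are single libraries, orange for DMSO at 2 days and blue for DMSO at 1 day, and bars give the mean ± SD (n = 3); the 2-day libraries of mir-788, mir-1022, mir-244 and lsy-6 spread more widely than their 1-day libraries.

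The largest rise was that of mir-788. It had 60.4, 74.0 and 98.9 CPM at 2 days, against 34.5, 26.2 and 27.7 CPM at 1 day. The lowest 2-day library stood well above the highest 1-day library, while the 2-day libraries differed widely among themselves. mir-788 rose 2.63-fold (log2 1.40 ± 0.12, adjusted p = 4.99e-12), or by 0.81 on the log2 scale with lane as a further term. mir-1022 had 194, 231 and 297 CPM at 2 days and 144, 155 and 139 CPM at 1 day. Here too 2-day replicate 3 was highest and the groups did not overlap, with a rise of 1.65-fold (log2 0.72 ± 0.09, adjusted p = 1.34e-08).

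mir-244 was the most abundant of the 10 largest rises. It had 2756, 3203 and 3955 CPM at 2 days and 2182, 2206 and 2197 CPM at 1 day. The 1-day libraries were almost equal and the 2-day libraries spread, all of them above. It rose (log2 0.59 ± 0.08, adjusted p = 2.39e-07), but did not pass with lane as a further term (log2 0.21, adjusted p = 0.0711). mir-355, which acts on insulin signalling in immunity, had 277, 273 and 261 CPM at 2 days and 188, 176 and 190 CPM at 1 day. Unlike the previous ones its libraries were tight at both times, and it rose 1.47-fold (log2 0.55 ± 0.07, adjusted p = 2.41e-08).

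The remaining large rises were of low miRNAs. mir-234 had 21.4, 22.9 and 24.5 CPM at 2 days and 16.7, 12.6 and 15.04 CPM at 1 day, with no overlap (log2 0.63 ± 0.12, adjusted p = 5.66e-05). Its log2 change was 0.39 with lane as a further term, 0.38 against H2O at 1 day and 1.12 with the lane pair at 5 days subtracted. mir-251 had 7.14, 8.001 and 11.4 CPM at 2 days and 4.17, 5.74 and 6.23 CPM at 1 day (log2 0.71 ± 0.20, adjusted p = 0.00325). It was the least secure of the 10, since it did not pass without 2-day replicate 3 (log2 0.49, adjusted p = 0.0616), with lane as a further term (log2 0.25, adjusted p = 0.267) or with the lane pair subtracted (log2 0.71, adjusted p = 0.132). mir-5545, which lies within the gene dnj-27, had 7.38, 7.92 and 11.6 CPM at 2 days and 5.45, 6.53 and 4.94 CPM at 1 day. Its log2 change was 0.68 ± 0.18 (adjusted p = 0.0019), and 0.26 with the lane pair at 5 days subtracted (adjusted p = 0.505).

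The 2-day libraries were not alike in these rises. Of the 36 miRNAs that rose, 24 had their highest 2-day value in replicate 3 and 26 their lowest in replicate 1, while over all 193 hairpins replicate 3 was highest in 87 and replicate 1 lowest in 80. Of the 49 that fell, replicate 3 was highest in 16. Without 2-day replicate 3, 69 miRNAs passed, 25 higher and 44 lower, and 68 of these were among the 85. What sets the 2-day libraries apart from each other was not tested.

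Of the 4 listed neuronal miRNAs 2 rose, where 18.7% of all hairpins tested rose and 44% passed in either direction. mir-124, a conserved miRNA of sensory neurons that lies within the gene trpa-1, had 33.8, 38.9 and 45.7 CPM at 2 days, against 20.9, 17.3 and 19.2 CPM at 1 day. The groups stood clearly apart, and it rose 2.06-fold (log2 1.04 ± 0.12, adjusted p = 4.7e-09). lsy-6, which makes the left and right ASE taste neurons differ by repressing cog-1, had 72.3, 89.7 and 107 CPM at 2 days and 64.4, 56.7 and 60.1 CPM at 1 day. Its lowest 2-day library exceeded its highest 1-day library by little, and it rose 1.48-fold (log2 0.57 ± 0.09, adjusted p = 1.01e-06), or by 0.22 with lane as a further term (adjusted p = 0.0461). mir-790 (log2 -0.04 ± 0.10) and mir-791 (log2 0.22 ± 0.14) did not pass and their groups overlapped. The median change of the 4 was 0.39, against 0.04 for all 193 hairpins.

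Of the markers of other tissues, those of muscle and intestine did not pass and that of glia did. mir-1 of muscle had 624, 692 and 680 CPM at 2 days and 638, 588 and 655 CPM at 1 day (log2 0.09 ± 0.10, adjusted p = 0.522). mir-60 of the intestine had 1796, 2005 and 1696 CPM at 2 days and 1916, 1638 and 1700 CPM at 1 day (log2 0.07 ± 0.09, adjusted p = 0.629). Both overlapped between the times. mir-228, found in glia, had 27139, 33274 and 38810 CPM at 2 days and 25860, 28651 and 24077 CPM at 1 day, overlapping in 1 library of each time (log2 0.34 ± 0.10, adjusted p = 0.0085). It did not pass without 2-day replicate 3 (log2 0.21, adjusted p = 0.148), without 1-day replicate 3 (log2 0.28, adjusted p = 0.0563) or with lane as a further term (log2 0.18, adjusted p = 0.134).

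In the mir-35 family, which oocytes and embryos hold in large amounts and need to develop, none of the 8 members passed in edgeR. Of all hairpins tested 44% passed. The log2 changes of the 8 ran from -0.05 to 0.19. With either other scaling 1 of the 8 passed, mir-42 (log2 0.24 with DESeq2 size factors, adjusted p = 0.0388). mir-35 had 48101, 47157 and 43469 CPM at 2 days and 42790, 39863 and 43594 CPM at 1 day, and the groups met (log2 0.14 ± 0.10, adjusted p = 0.306). The family took 13.4% ± 0.91 of all counts at 2 days and 12.3% ± 0.56 at 1 day (SD, n = 3 each; exact permutation test, p = 0.3). With lane as a further term mir-35 (log2 0.24, adjusted p = 0.0199), mir-38 (log2 0.28, adjusted p = 0.0312), mir-41 (log2 0.31, adjusted p = 0.00181) and mir-42 (log2 0.24, adjusted p = 0.0479) passed as higher. That fit takes both treatments together, so these values are not a rise in DMSO alone. In rotenone worms 3 of the 8 passed as higher over this interval. The family's median log2 change was 0.23 in rotenone and 0.04 in DMSO. None of the 8 passed the test of the DMSO change minus the rotenone change, so a difference between treatments is not shown.

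The bantam-like mir-58 family took the largest share of counts of all listed families, 28.0% ± 0.27 at 2 days and 29.6% ± 1.3 at 1 day (SD, n = 3 each). Of its 5 tested members 2 fell, where 25.4% of all hairpins tested fell. mir-82 had 142762, 139110 and 151073 CPM at 2 days and 157871, 162876 and 182145 CPM at 1 day, with all 2-day libraries below (log2 -0.22 ± 0.08, adjusted p = 0.0236). mir-81 had 23160, 21022 and 22588 CPM at 2 days and 28152, 29338 and 28043 CPM at 1 day, a wider gap (log2 -0.36 ± 0.06, adjusted p = 1.92e-05). The call of mir-82 was lost without 2-day replicate 1 or 2 or 1-day replicate 2 or 3 (adjusted p = 0.0571 to 0.152 in edgeR), with DESeq2 size factors (0.0516) and with lane as a further term (0.171). mir-58a (log2 0.02 ± 0.07) and mir-80 (log2 0.07 ± 0.05; known from dietary restriction) did not pass.

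The near-identical hairpins mir-44 and mir-45 rose alike. mir-44 had 27617, 26825 and 29774 CPM at 2 days and 24732, 21975 and 22108 CPM at 1 day, without overlap (log2 0.29 ± 0.05, adjusted p = 6.82e-06). mir-45 had 27062, 26281 and 29222 CPM at 2 days and 24270, 21394 and 21759 CPM at 1 day (log2 0.29 ± 0.05, adjusted p = 7.46e-06). Their values were almost the same in each library, so they may not be separate measurements. mir-72, the second most abundant hairpin of these libraries, had 70874, 69632 and 77016 CPM at 2 days and 67436, 63955 and 68818 CPM at 1 day. Its libraries did not overlap, but it missed the threshold (log2 0.12 ± 0.05, adjusted p = 0.051) and passed with DESeq2 size factors (log2 0.16, adjusted p = 0.00749). mir-57 (log2 0.11 ± 0.07, adjusted p = 0.218) overlapped.

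**Figure D3:**
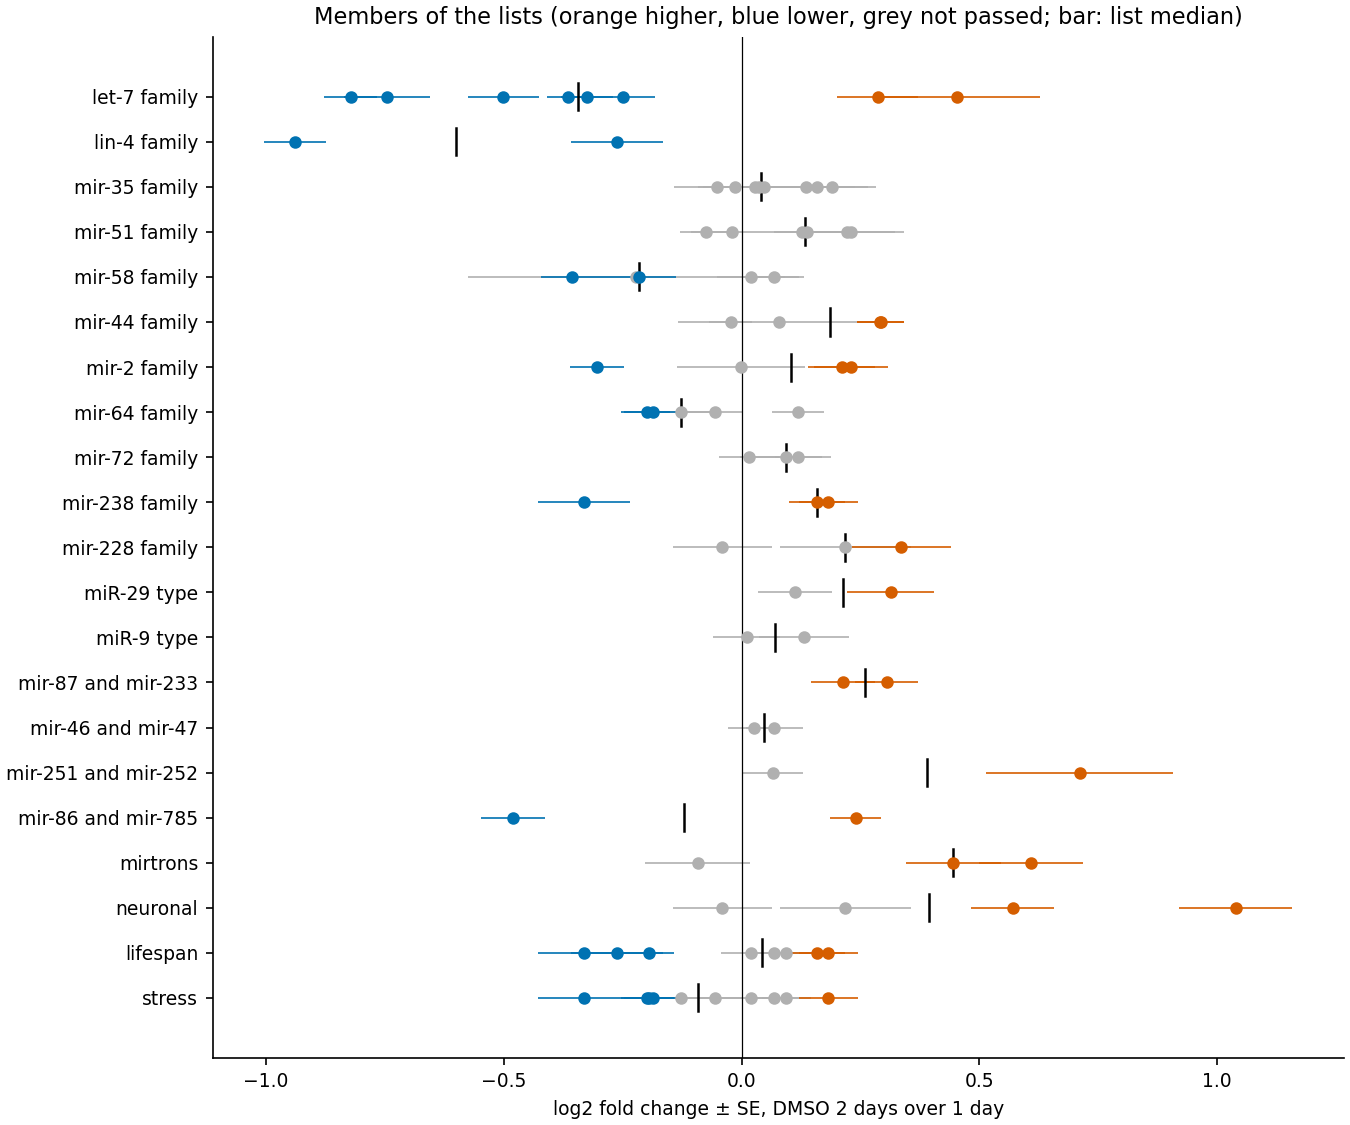
Log2 fold change ± SE in DMSO worms, 2 days over 1 day, of each tested member of 21 miRNA lists (rows). Orange points were higher at 2 days, blue points lower and grey points did not pass, and the black bar is the median of the list; the lin-4 family and most of the let-7 family lie left of 0, and the mir-35 and mir-51 families hold grey points only.

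Of the 71 tested hairpins on at least 1 of the 21 lists 34 passed, 18 higher and 16 lower, against 44% of all hairpins tested. Several families held members that moved in opposite directions. In the mir-2 family mir-2 (log2 0.21 ± 0.07, adjusted p = 0.0136) and mir-43 (log2 0.23 ± 0.08, adjusted p = 0.0152) rose, while mir-250 fell (log2 -0.30 ± 0.06, adjusted p = 3.3e-05). mir-2 and mir-43 did not pass without 2-day replicate 3 (adjusted p = 0.0771 for mir-2 and 0.0539 for mir-43 in edgeR) or without 1-day replicate 2 (0.111 and 0.131). In the mir-238 family mir-238 and mir-239a rose and mir-239b fell. mir-239b had 806, 828 and 750 CPM at 2 days and 944, 1124 and 934 CPM at 1 day, with all 2-day libraries below (log2 -0.33 ± 0.10, adjusted p = 0.00488). It did not pass without 1-day replicate 2 (log2 -0.23, adjusted p = 0.0831) or against H2O at 1 day (log2 -0.16, adjusted p = 0.176).

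mir-239a had 1119, 1107 and 1013 CPM at 2 days and 935, 979 and 939 CPM at 1 day, also without overlap (log2 0.18 ± 0.06, adjusted p = 0.0161). It missed the threshold without 2-day replicate 1 or 2 or 1-day replicate 1 or 3 (adjusted p = 0.0507 to 0.0659 in edgeR). mir-238, whose loss shortens life, had 8044, 8599 and 7701 CPM at 2 days and 7788, 7043 and 6969 CPM at 1 day, with 1 library of each time crossing (log2 0.16 ± 0.06, adjusted p = 0.0272). Its call was lost without 2-day replicate 2 or 1-day replicate 2 or 3 (adjusted p = 0.118 to 0.177 in edgeR) and against H2O at 1 day (log2 0.09, adjusted p = 0.245). mir-86 rose (log2 0.24 ± 0.05, adjusted p = 0.000371; 0.07 with lane as a further term, adjusted p = 0.381) while mir-785, which is listed with it, fell (log2 -0.48 ± 0.07, adjusted p = 2.6e-07).

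Other lists had calls in 1 direction or none, where 44% of all hairpins tested passed and 18.7% rose. mir-87 (log2 0.31 ± 0.07, adjusted p = 0.000248) and mir-233 (log2 0.21 ± 0.07, adjusted p = 0.00876) both rose, and with lane as a further term neither passed (log2 0.12, adjusted p = 0.0889 for mir-87; log2 0.01, adjusted p = 0.953 for mir-233). mir-233 also missed the threshold without 2-day replicate 2 (adjusted p = 0.0572 in edgeR). mir-83 of the miR-29 type rose (log2 0.31 ± 0.09, adjusted p = 0.00509), but not past the threshold without 1-day replicate 3 (log2 0.22, adjusted p = 0.0686) or against H2O at 1 day (log2 0.16, adjusted p = 0.156). None of the 6 members of the mir-51 family, the miR-100 type of the worm, passed in edgeR (log2 -0.07 to 0.23, median 0.13), whereas 4 passed with DESeq2 size factors and 4 with total counts. Of 3 mirtrons, hairpins made by splicing instead of by Drosha, mir-1018 (log2 0.61 ± 0.11, adjusted p = 1.79e-05; 0.40 with lane and 0.99 with the lane pair subtracted) and mir-62 (log2 0.45 ± 0.10, adjusted p = 0.000371; 0.18 with lane, adjusted p = 0.134) rose. mir-1018 is a mirtron by the list only, since the annotation used here placed it within no protein-coding gene on its strand.

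Among 8 lifespan-associated miRNAs 2 rose (mir-238 and mir-239a), 3 fell (lin-4, mir-239b and mir-246) and 3 did not pass, where 44% of all hairpins tested passed. The median log2 change of the 8 was 0.04, against 0.04 for all 193. mir-246, whose loss shortens life, had 11887, 12057 and 11530 CPM at 2 days and 12772, 14348 and 13476 CPM at 1 day, with all 2-day libraries below (log2 -0.20 ± 0.05, adjusted p = 0.00274). It did not pass without 1-day replicate 2 (adjusted p = 0.134), without the low-count filter (adjusted p = 0.13) or with the lane pair subtracted (adjusted p = 0.215). It did not pass without 1-day replicate 2 (log2 -0.14, adjusted p = 0.134). mir-71, which prolongs life, did not pass (log2 0.02 ± 0.06, adjusted p = 0.843), and mir-34 of the DNA damage response did not pass (log2 0.09 ± 0.05, adjusted p = 0.135). Of 10 stress-associated miRNAs, which include 6 of the lifespan list, 1 rose and 4 fell, a share near the 44% of all hairpins tested. Those fallen included mir-239b, mir-246 and mir-229 (log2 -0.20 ± 0.05, adjusted p = 0.000782). mir-229 did not pass without the low-count filter (adjusted p = 0.0755) or with the lane pair at 5 days subtracted (adjusted p = 0.0528). The other was mir-64 (log2 -0.19 ± 0.07, adjusted p = 0.0235), whose groups overlapped and whose call was lost without 2-day replicate 2 or 3 or 1-day replicate 1 (adjusted p = 0.0742 to 0.215 in edgeR) and with either other scaling (0.128 and 0.17).

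Where several hairpins of a genomic cluster passed, they had the same direction. Clusters were taken as hairpins of 1 strand within 10 kb of the next in the Ensembl 115 annotation of WBcel235. Of 23 clusters with at least 2 tested hairpins, 8 had at least 2 that passed, and in each of these 8 the calls were in 1 direction. In 6 clusters every tested hairpin passed, all of them lower at 2 days, where 44% of all hairpins tested passed and 25.4% were lower. These were mir-357 with mir-358, mir-48 with mir-241, mir-240 with mir-786, mir-359 with mir-785, mir-795 with mir-794 and mir-2212 with mir-1819. Hairpins cut from 1 transcript are not separate observations, and a cluster's agreement was not tested.

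mir-240 had 1976, 1928 and 1885 CPM at 2 days and 2556, 2735 and 2565 CPM at 1 day (log2 -0.44 ± 0.06, adjusted p = 6.96e-08). Its neighbour mir-786, which sets the rhythm of defecation from the intestine, had 56.7, 52.8 and 46.2 CPM at 2 days and 70.7, 62.9 and 61.8 CPM at 1 day (log2 -0.33 ± 0.09, adjusted p = 0.00325). Both pairs of groups were separate. The log2 change of mir-240 was -0.24 with lane as a further term and -0.29 with the lane pair at 5 days subtracted, and mir-786 did not pass with that subtraction (log2 -0.26, adjusted p = 0.151). mir-2212 (log2 -0.38 ± 0.09) and mir-359 (log2 -0.41 ± 0.11) also missed the threshold there, with adjusted p-values of 0.256 for mir-2212 and 0.208 for mir-359. mir-1819 rested on 60 counts at 2 days and 105 at 1 day, and did not pass without 2-day replicate 2 or 1-day replicate 2 or 3 (adjusted p = 0.0504 to 0.0831 in edgeR). Of the 55 tested hairpins that lie within a protein-coding gene on its strand, 12 rose and 13 fell, and of the 138 others 24 rose and 36 fell. Both shares lie near the 44% of all hairpins tested that passed.

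In single clusters only some members passed. mir-228 rose while its neighbour mir-790 did not pass. In the cluster of mir-230 and mir-791, mir-230 passed as lower with overlapping groups (log2 -0.22 ± 0.08, adjusted p = 0.0339), a call that was lost without 2-day replicate 1 or 2 or 1-day replicate 2 or 3 (adjusted p = 0.0598 to 0.352 in edgeR) and with either other scaling (0.0536 and 0.108), and its log2 change was -0.33 without 2-day replicate 3. mir-2 rose and its neighbour mir-71 did not pass. mir-2209a (log2 -0.36 ± 0.08, adjusted p = 0.000351; -0.08 with lane, adjusted p = 0.381; -0.23 against H2O at 1 day) and mir-1829c (log2 -0.25 ± 0.06, adjusted p = 0.000324; -0.13 with lane, adjusted p = 0.0594) fell, each as the only call of its cluster.

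The 57 hairpins below the filter held 319 counts in the 2-day libraries together and 269 in the 1-day libraries, at most 13 in 1 library, and 15 of them had none in any of the 6. Among the low hairpins that were tested, 6 passed with a mean under 5 CPM and are given here after their values were seen. mir-4926 had 61 counts at 2 days and 24 at 1 day and was higher. mir-1819, mir-8203 (75 counts at 2 days, 136 at 1 day), mir-2953 (26 at 2 days, 61 at 1 day), mir-4929 (30 at 2 days, 78 at 1 day) and mir-5550 (20 at 2 days, 52 at 1 day) were lower. Each of these 6 changes therefore rests on few reads over 3 libraries per group. In the annotation mir-8203 overlaps mir-786, so the counts of mir-8203 and mir-786 may not be separate measurements.

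The same interval was then examined in worms given rotenone at 100 nM, whose libraries are not shared with the DMSO comparison and were sequenced on lane 2 (2 days) and lane 8 (1 day). There 68 of 193 hairpins (35.2%) passed, 25 higher at 2 days (13%) and 43 lower (22.3%). Of the 49 miRNAs that fell in DMSO, 31 also fell in rotenone, which is 63.3% of the falls in DMSO and 72.1% of those in rotenone. Of the 36 that rose in DMSO, 13 also rose in rotenone, which is 36.1% of the rises in DMSO and 52% of those in rotenone. The rotenone change had the direction of the DMSO change in 46 of the 49 falls and in 23 of the 36 rises. Among the falls the median log2 change was -0.41 in DMSO and -0.23 in rotenone, and among the rises 0.34 in DMSO and 0.12 in rotenone. These miRNAs were chosen by passing in DMSO, which by itself favours larger medians there. The medians therefore do not compare the sizes of change between treatments. Across the 193 hairpins, which are not independent replicates, Pearson's r of the 2 sets of changes was 0.589.

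Several large falls, among them those of the timing miRNAs let-7 and mir-241, were present in both treatments. let-7 had a log2 change of -0.82 ± 0.06 in DMSO and -0.70 ± 0.06 in rotenone, and mir-241 of -0.75 ± 0.09 in DMSO and -0.74 ± 0.09 in rotenone. mir-357 changed by -1.26 ± 0.10 in DMSO and -1.12 ± 0.10 in rotenone, and mir-235 by -0.69 ± 0.10 in DMSO and -0.70 ± 0.10 in rotenone. For these 4 the test of the difference between treatments gave adjusted p-values of 0.336 (let-7), 0.981 (mir-241), 0.567 (mir-357) and 0.981 (mir-235), which does not show that the changes were equal. mir-237 fell in both and further in DMSO, by 0.94 on the log2 scale against 0.66 in rotenone (difference -0.28 ± 0.09, adjusted p = 0.0358). That difference ran from -0.32 to -0.20 with each of the 12 libraries left out, and did not pass in 7 of these 12 fits, those without DMSO 2-day replicate 1 or 3, DMSO 1-day replicate 2, rotenone 2-day replicate 2 or 3 or rotenone 1-day replicate 1 or 3 (adjusted p up to 0.357).

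**Figure D4:**
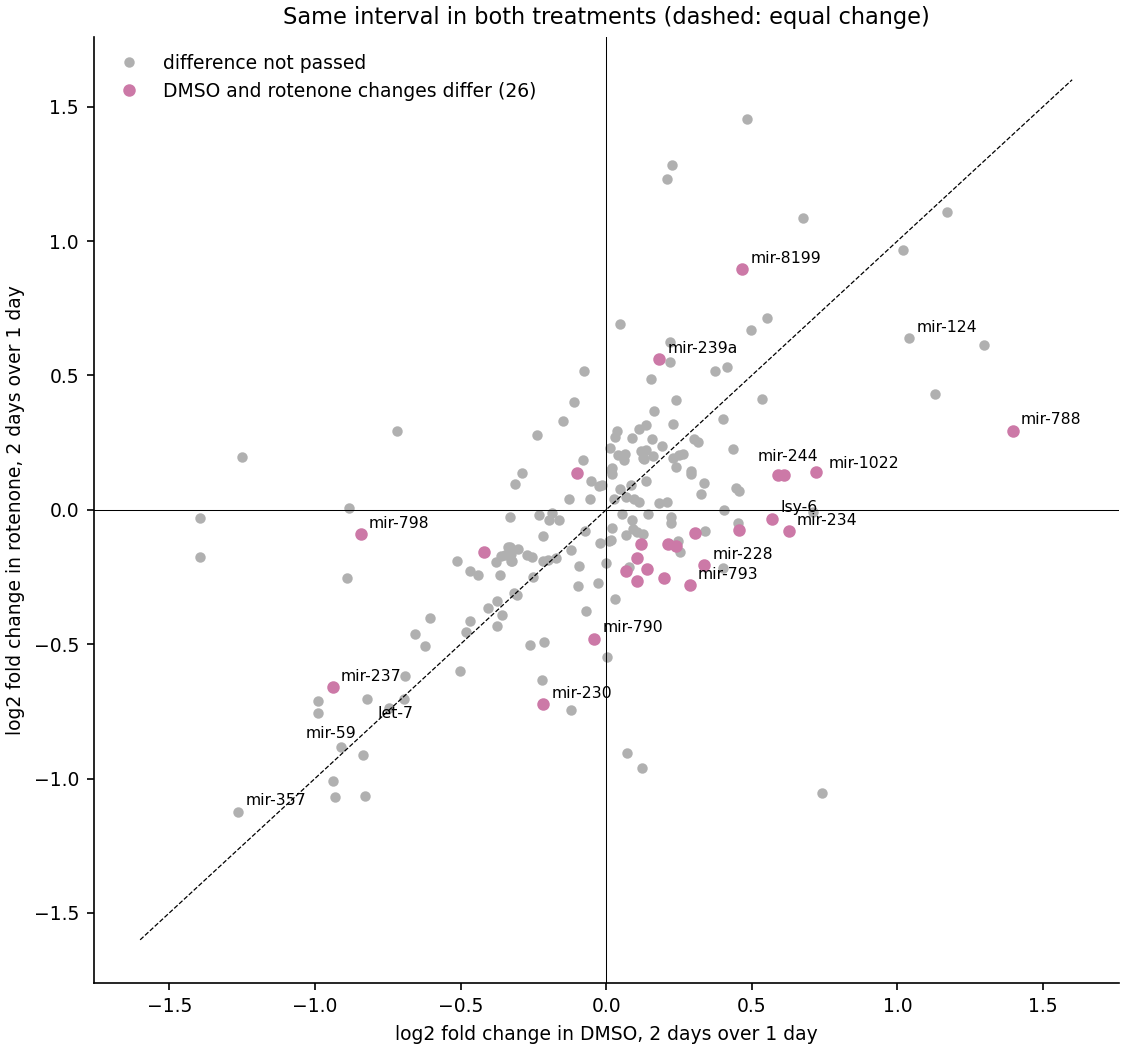
Log2 fold change of 193 hairpins, 2 days over 1 day, in DMSO worms (horizontal axis) and in rotenone worms (vertical axis), with the dashed line marking equal change. The 26 pink points passed the test of the difference between treatments; let-7, mir-59 and mir-357 lie low in both, while mir-788, mir-1022 and lsy-6 lie to the right of the line.

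The difference between the DMSO and the rotenone change passed for 26 of 193 hairpins (13.5%). The DMSO change was the higher one in 20 of them and the lower one in 6. Of the 26, 15 were among the rises in DMSO, 4 among the falls and 7 among miRNAs that did not pass in DMSO. Without DMSO 2-day replicate 3 the difference passed for 14 hairpins, 12 with the higher change in DMSO and 2 with the lower. mir-788 rose in DMSO by 1.40 on the log2 scale, against a log2 change of 0.29 ± 0.14 in rotenone that did not pass (difference 1.10 ± 0.19, adjusted p = 0.000149). lsy-6 had a log2 change of 0.57 in DMSO and -0.03 in rotenone (difference 0.60 ± 0.13, adjusted p = 0.00149), and mir-244 of 0.59 in DMSO and 0.13 in rotenone (difference 0.46 ± 0.12, adjusted p = 0.00509; 0.31, adjusted p = 0.0606, without DMSO 2-day replicate 3). In contrast mir-355 and mir-5545 rose in both, mir-355 by 0.55 in DMSO and 0.71 in rotenone and mir-5545 by 0.68 in DMSO and 1.09 in rotenone. mir-124 also rose in both, by 1.04 in DMSO and 0.64 in rotenone (adjusted p = 0.000164), and the difference did not pass (0.40 ± 0.18, adjusted p = 0.145).

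Opposite calls were made for 3 miRNAs, each higher at 2 days in DMSO and lower in rotenone. mir-86 had log2 changes of 0.24 in DMSO and -0.14 in rotenone. mir-793 had 0.29 in DMSO and -0.28 in rotenone, and mir-242, named after its values were seen, 0.20 in DMSO and -0.26 in rotenone. The difference passed for all 3, with adjusted p-values of 0.00149 for mir-86, 0.00149 for mir-793 and 0.00342 for mir-242. mir-242 had overlapping groups in DMSO. The DMSO and rotenone changes also run between different lanes, so treatment and lane cannot be told apart in these differences.

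The other times of the series place the interval. Mean levels of let-7 in DMSO were 9845 CPM at 6 hours, 4184 at 1 day, 2366 at 2 days, 2265 at 3 days and 2067 at 5 days, and in rotenone 9551, 5410, 3323, 2498 and 2035 CPM at the same times. In DMSO let-7 was thus already low at 2 days, whereas the rotenone mean at 2 days still lay above that at 3 days. mir-237 averaged 43365 CPM at 6 hours, 33614 at 1 day, 17531 at 2 days, 17332 at 3 days and 13294 at 5 days in DMSO. mir-59 averaged 1787, 1086, 548, 564 and 607 CPM and mir-357 201, 92.2, 38.4, 42.1 and 40.8 CPM at these times in DMSO. These levels come from 3 libraries per group and the adjoining intervals share the 2-day libraries, so no test between intervals is given.

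The rises had other courses. mir-788 averaged 121 CPM at 6 hours, 29.5 at 1 day, 77.8 at 2 days, 43.5 at 3 days and 11.1 at 5 days in DMSO, so the 2-day level stood between higher and lower ones. mir-124 averaged 18.9, 19.1, 39.5, 17.5 and 13.0 CPM at these times in DMSO and 17.9, 19.6, 30.5, 20.4 and 14.7 CPM in rotenone, with the highest mean at 2 days in both. lsy-6 averaged 65.8, 60.4, 89.8, 78.7 and 44.5 CPM in DMSO and 67.0, 56.1, 54.8, 75.5 and 46.2 CPM in rotenone, where the highest mean came at 3 days. mir-244 averaged 2755, 2195, 3304, 3554 and 2421 CPM in DMSO and 3165, 1587, 1735, 2380 and 2220 CPM in rotenone.

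**Figure D5:**
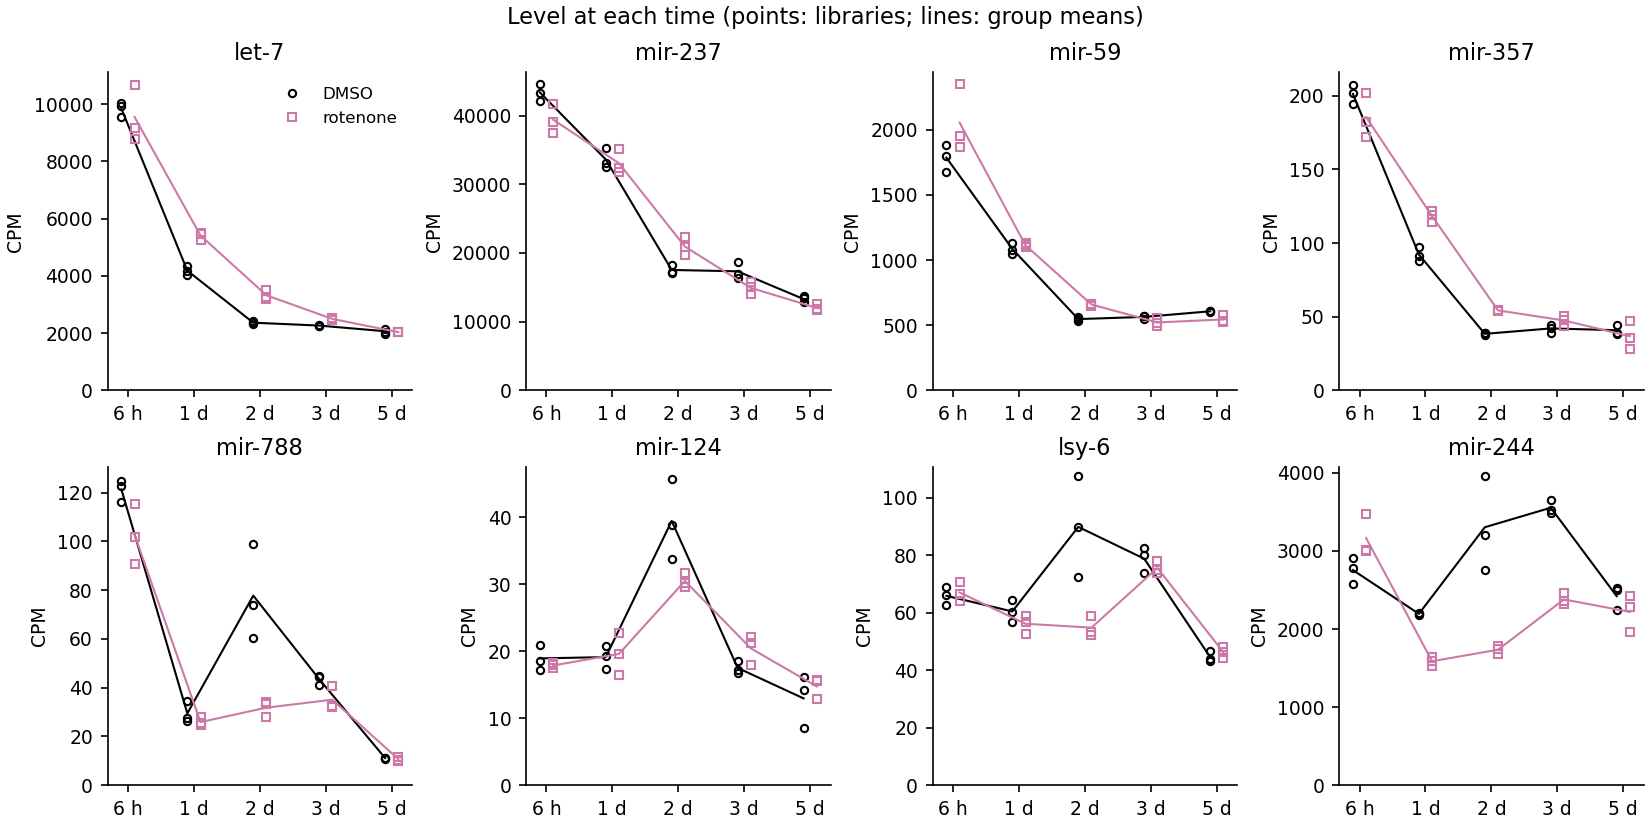
CPM of 4 miRNAs that fell (upper row) and 4 that rose (lower row) between 1 day and 2 days, at 5 times from 6 hours to 5 days. Circles are single DMSO libraries, squares single rotenone libraries (n = 3 per group) and lines join group means. The 2-day circles of mir-788, lsy-6, mir-244 and mir-124 lie above the squares, and the means of mir-124 peak at 2 days in both treatments.

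Lane was examined with the groups at hand, which never differ in lane alone. Between DMSO and H2O at 5 days, vehicle and lane cannot be told apart. DMSO and H2O at 5 days were sequenced on lanes 1 and 2, the same lanes as DMSO at 2 days and at 1 day, and no hairpin (0%) differed between them in edgeR (8 at an unadjusted p under 0.05) or in DESeq2 (9 unadjusted), at depths of 4361246 to 6040997 counts for DMSO and 4536485 to 6737429 for H2O. When that difference was subtracted, an alternative chosen after seeing the data, 48 hairpins passed, 19 higher and 29 lower, and all 85 main calls kept their sign. With lane as a further term 74 passed, 34 higher and 40 lower, and 58 of them were among the 85. Of the 85, 84 kept their sign, the exception being mir-242 at a log2 change of -0.03. That fit takes DMSO and rotenone worms together, and mir-242 had log2 changes of 0.20 in DMSO and -0.255 in rotenone. Lane and the rotenone change therefore cannot be told apart in it. With H2O at 1 day, sequenced on lane 3, in place of DMSO at 1 day, 95 passed, 50 higher and 45 lower, 73 of them among the 85, and all 85 kept their sign. That comparison shares the 2-day libraries with the main one, and its groups differ in vehicle and lane as well as in time. In it let-7 had a log2 change of -0.93, mir-237 of -0.96, mir-788 of 1.53 and mir-124 of 1.01.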

How the data were processed

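Small RNA of whole worms was turned into libraries with a TruSeq kit for small RNA, per the labels' protocols. The authors deposited raw read counts per miRNA hairpin, in a table of 250 hairpins and 36 libraries. The submitters' processing notes name Trimmomatic 0.36, BWA 0.7.12-r1039, SAMtools 1.3.1-9 and bcl2fastq 1.8.4. How reads were counted, on which build and annotation, and where reads matching more than 1 hairpin went is not stated by any label or header, so values of near-identical hairpins carry that doubt, and coordinates are left out. Sequences were not used here. Total counts over the series ran from 4361246 to 14960062.

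Groups were taken from the labels. In R 4.3.3, filterByExpr (minimum count 10) retained 193 hairpins, and the other 57 held 0.000732% of all counts. edgeR 4.0.16 fitted all 36 libraries together, 1 mean for each group, with TMM factors of 0.854 to 1.16, 24 residual and 12.6 prior degrees of freedom and 0.0678 as the common biological coefficient of variation. SE is the size of the log2 change divided by the square root of F. The difference between treatments is the DMSO change minus the rotenone change. Adjustment was by Benjamini-Hochberg within each comparison. Libraries of a group differed beyond sampling noise, with chi-square per degree of freedom of 156 to 423 at 2 days and 139 to 258 at 1 day. The procedure was tested on simulated data.

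The naming rule took the 10 largest changes in each direction that passed, did not overlap and averaged at least 5 CPM, up to 4 members of each list with the smallest p past the threshold, the tissue markers, and the 5 hairpins of highest mean CPM. Listed names without a matching hairpin were mir-58 and mir-1834, while mir-1019 was below the filter. The members and the 21 lists were chosen with earlier results of these data known. Clusters and host genes come from the Ensembl 115 annotation, in which 245 of 250 hairpins matched. Alternatives comprised other scalings (DESeq2 size factors, total counts), leaving out the filter, DESeq2 1.42.0 as the test, a block for the replicate number, the 6 libraries alone, each library left out, H2O at 1 day as the 1-day group and lane as a term. Subtraction of the lane pair at 5 days, and leaving out each library for the difference between treatments, were added after seeing the data.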

Additional observations from a re-analysis of the deposited data

Results flagged for a closer look

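The change between 1 day and 2 days differed between DMSO and rotenone for 26 miRNAs by a test of the difference itself (DMSO change minus rotenone change on the log2 scale, edgeR's quasi-likelihood test, adjusted p under the threshold of 0.05). Among rises in DMSO the difference was 1.10 for mir-788, 0.71 for mir-234, 0.60 for lsy-6, 0.58 for mir-1022, 0.57 for mir-793, 0.54 for mir-228, 0.53 for mir-76, 0.48 for mir-1018 and 0.46 for mir-244. Smaller differences among the rises were those of mir-242 (0.46), mir-87 (0.39), mir-86 (0.38) and mir-233 (0.34). mir-76 had 200, 242 and 300.0 CPM at 2 days and 194, 174 and 173 CPM at 1 day in DMSO. Rises that were larger in rotenone were those of mir-239a (difference -0.38) and mir-8199 (-0.43), the first with log2 changes of 0.18 in DMSO and 0.56 in rotenone. Among falls in DMSO, mir-237 (-0.28), mir-798 (-0.75) and mir-1829b (-0.26) fell further in DMSO, and mir-230 fell less (0.51; log2 -0.22 in DMSO and -0.72 in rotenone). Of the miRNAs that did not pass in DMSO, mir-790 (0.44), mir-245 (0.37), mir-90 (0.36), mir-46 (0.30), mir-57 (0.29) and mir-72 (0.25) had the higher change in DMSO, and mir-70 (-0.24) the lower.

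Of these 26 differences 13 passed with each of the 12 libraries left out in turn, an alternative chosen after seeing the data, and 13 did not. The 13 that were lost in at least 1 of those fits were mir-228, mir-1018, mir-244, mir-790, mir-90, mir-46, mir-57, mir-72, mir-70, mir-1829b, mir-237, mir-8199 and mir-798. Of these 13, all but mir-70 missed the threshold without DMSO 2-day replicate 3, with the highest adjusted p over the fits between 0.0606 for mir-244 and 0.357 for mir-237. The rotenone libraries of 2 days and 1 day were sequenced on lanes 2 and 8 and the DMSO libraries on lanes 1 and 2, so treatment and lane cannot be told apart in these differences. These miRNAs, apart from those the naming rule gives, were named after their values were seen.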

How the results depend on the processing

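The 85 calls between 2 days and 1 day in DMSO became 95 with DESeq2 size factors, 97 with total counts, 84 without the filter (46 higher, 38 lower), 97 in DESeq2 (53 higher, 44 lower) and 79 from the 6 libraries alone, and ranged from 68 to 85 with each library left out. They were 48 when the lane pair at 5 days was subtracted, 47 of them among the 85. The cause was not tested, and that setting adds the error of 6 shallower libraries and takes off vehicle along with lane. The 68 calls in rotenone ranged from 48 to 84 over the other settings and from 49 to 58 with each library left out. The 26 differences between treatments ranged from 20 to 32 over the other settings and from 14 to 27 with each library left out, 14 being the count without DMSO 2-day replicate 3. Without the filter all 20 differences had the higher change in DMSO. With the replicate block 85 passed, 84 of them the same miRNAs, and mir-72 passed as higher (adjusted p = 0.0338). The replicate numbers were not taken to pair the libraries, since over all hairpins the deviations of same-numbered 2-day and 1-day libraries correlated at -0.0385, 0.00711 and 0.0608. Single miRNAs, looked up after their values were seen, did differ between numbers across the series: replicate 1 was highest for mir-64 in 10 of 12 groups and lowest for mir-82 in 8 of 12, and both passed with the block (adjusted p = 0.00495 for mir-64 and 0.0102 for mir-82).

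None of the 70 named miRNAs changed the sign of a call under the settings run for them. With lane as a term 13 of them lost their call (mir-2, mir-62, mir-64, mir-82, mir-86, mir-87, mir-228, mir-233, mir-244, mir-251, mir-1821, mir-1829c and mir-2209a) and 5 gained one. That fit takes DMSO and rotenone worms together, so lane and the rotenone change cannot be told apart in these losses and gains. Among the losses, mir-86, mir-87, mir-228, mir-233 and mir-244 passed the test of the difference between treatments. With the lane pair subtracted 21 of the named miRNAs lost their call (lin-4, mir-2, mir-43, mir-62, mir-64, mir-82, mir-87, mir-229, mir-230, mir-233, mir-238, mir-239a, mir-246, mir-251, mir-359, mir-786, mir-1819, mir-1821, mir-1829c, mir-2212 and mir-5545). Without the filter mir-64, mir-82, mir-229, mir-230, mir-246 and mir-794 did not pass. With each library left out 60 to 67 kept their side of the threshold. By scaling, mir-36, mir-39 and mir-790, none of which passed, changed sign. Depth limits the low hairpins: 3 counts correspond to 0.265 to 0.267 CPM in the 2-day libraries and 0.232 to 0.311 CPM in the 1-day libraries.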
